A study of Mus musculus with 48 samples.

Results

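Hexokinase 1 and 9 further genes of glycolysis were followed through cerebral cortex RNA-seq of 48 mice. The 10 genes were Hk1 (hexokinase 1), Gpi1 (glucose-6-phosphate isomerase), Pfkl, Pfkm and Pfkp (the liver, muscle and platelet types of phosphofructokinase), Aldoa and Aldoc (aldolases A and C), Eno2 (the neuronal enolase), and Ldha and Ldhb (the A and B subunits of lactate dehydrogenase). They were taken by name, with responses to particles and differences between APOE alleles in these same mice already known, from the 16952 genes listed in both expression tables of the study. For that reason values of the 10 genes in those contrasts are given as a description, with no test. Where 1 of them is said to pass a threshold there, that describes these mice and is not evidence from a test. Tests are given for comparisons of females with males, a contrast the choice did not use although it draws on the same mice, and for 70 other genes of glucose metabolism.

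Mice inhaled nPM, a nanosized fraction of urban traffic particulate matter collected on filters and re-aerosolized, or filtered air, for 5 hours per day on 3 days per week. C57BL/6J mice (wild type, called B6) were exposed for 8 weeks and carried an age of 4 months in the labels. B6-background mice carrying human APOE3 or APOE4 by targeted replacement of mouse Apoe (APOE-TR) were exposed for 15 weeks in a separate experiment and carried an age of 6 months. Each of the 12 groups, defined by genotype, sex and exposure, held 4 mice, so each n below counts mice and each p-value measures the spread among mice. The B6 and APOE-TR mice differ in exposure batch, duration, age and expression table as well as in genotype, and these cannot be told apart, so no level was tested between them.

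Glycolysis splits glucose into pyruvate in the cytosol. Hexokinase traps glucose in the cell as glucose-6-phosphate, and hexokinase 1, the main form in brain, can sit on the outer mitochondrial membrane. Phosphofructokinase commits sugar to the pathway and is its main point of control. Aldolase cleaves fructose bisphosphate, enolase acts near the end, and lactate dehydrogenase interconverts pyruvate and lactate. In brain, aldolase C is abundant in astrocytes and enolase 2 in neurons. Several of these genes, Ldha among them, are textbook targets of HIF1A, the transcription factor of the hypoxia response, which binds DNA elements with a core of ACGTG or GCGTG.

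The sequences below show how differently 3 genes at the centre of the results are laid out upstream of their starts. Each is the 250 bases before a RefSeq transcription start of build GRCm38.p6, printed from 5′ to 3′ on the strand of the gene, with ACGTG and GCGTG on either strand in capitals. The Hk1 gene spans chr10:62268855-62379908 on the minus strand, with 24 merged exons in GENCODE M21, and has 2 RefSeq starts whose windows lie at chr10:62379909-62380158 and chr10:62340422-62340671 on the minus strand. The Ldha window is chr7:46845554-46845803 on the plus strand, and the Ldhb window is chr6:142507958-142508207 on the minus strand.
Hk1, first start: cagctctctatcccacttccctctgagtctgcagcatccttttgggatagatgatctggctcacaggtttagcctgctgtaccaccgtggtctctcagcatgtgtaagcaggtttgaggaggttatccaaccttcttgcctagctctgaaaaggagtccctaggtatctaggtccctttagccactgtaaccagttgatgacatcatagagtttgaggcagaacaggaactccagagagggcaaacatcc
Hk1, the second start: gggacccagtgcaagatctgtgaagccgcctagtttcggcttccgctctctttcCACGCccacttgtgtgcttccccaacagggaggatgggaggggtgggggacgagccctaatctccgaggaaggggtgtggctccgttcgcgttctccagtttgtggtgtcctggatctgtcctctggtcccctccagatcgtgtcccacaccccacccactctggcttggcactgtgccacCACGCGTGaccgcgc
Ldha, first start: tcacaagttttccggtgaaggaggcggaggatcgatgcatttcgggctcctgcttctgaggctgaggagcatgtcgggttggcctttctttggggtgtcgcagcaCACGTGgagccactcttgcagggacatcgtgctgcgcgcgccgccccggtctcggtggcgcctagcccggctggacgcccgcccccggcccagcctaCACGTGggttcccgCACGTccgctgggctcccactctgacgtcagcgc
Ldhb: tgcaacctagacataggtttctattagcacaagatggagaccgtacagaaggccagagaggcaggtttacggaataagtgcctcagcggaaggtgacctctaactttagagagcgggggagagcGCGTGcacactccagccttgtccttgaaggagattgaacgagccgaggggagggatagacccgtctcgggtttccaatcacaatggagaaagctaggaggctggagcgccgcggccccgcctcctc
The first Hk1 window held 0 matches and the second held 3. The Ldha window held 5, counting both strands, where a palindromic CACGTG counts on each, and the Ldhb window held 1. At least 1 match stood in 13 of the 18 windows of the 10 genes (72.2%), against 38.6% of all 32851 RefSeq start windows of the same length. Counted by gene, 8 of the 10 had a match at 1 start or more, and Eno2 and Gpi1 had none. Each match is a run of letters and not a measured binding site, and several starts belong to the same gene. Some neighbouring windows of Pfkm and of Aldoa overlap, and the same match is counted in each of them. The share of all genes with a match at any start was not counted.

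Levels are TMM-scaled CPM (reads scaled to a common library total). All 10 genes passed the filter on low values, which asked for a value above the lowest of the library in every mouse of a fit, in every comparison. Library depth ran from 2.05 to 24.4 M estimated reads in B6 and from 17.8 to 31.3 M reads in APOE-TR. In APOE-TR, every male library was deeper than every female one, at 22.4 M or more against 22.3 M or fewer. Mouse Apoe, the replaced gene, averaged 10.7 to 24.7 CPM in APOE-TR groups against 206 to 401 CPM in B6. The sum of 7 cortical excitatory neuron markers was as low as 84.8 CPM in a B6 male control, against 424 CPM or more in every APOE-TR library, and the sum of 7 striatal neuron markers varied from 94.7 to 1948 CPM among B6 controls.

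Both libraries named 61 and F6 among the APOE3 female controls stood apart and bear on every value that uses that group. Mitochondrial genes made up 21.8% and 18.3% of their summed CPM, against 7.03% to 14.9% in the other 30 APOE-TR libraries. The length slope of a library, which tells how its log2 levels, set against those of the other mice, change across genes per log2 unit of exon length, was -0.53 and -0.38 in them. The other APOE3 female controls, 52 and 63, had slopes of -0.11 and -0.14. Slopes of the APOE3 females given nPM ran from -0.21 to -0.0058, those of APOE4 females from -0.098 to 0.028 and those of APOE-TR males from 0.055 to 0.15. A negative slope means that long transcripts read low. Hk1, with 4852 bp of exonic sequence, is the longest of the 10 genes and Ldhb, with 1304 bp, the shortest. The column named F6 has an animal number found in no sample title, and its name alone put it among APOE3 female controls. Main results are given below with and without this pair of libraries. Isozyme shares, differences of the other genes of glucose metabolism and some differences of the 10 genes are given only with the pair. The part that RNA of these libraries played in a result was not tested.

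Per kilobase of exon, Aldoa stood highest of the 10 genes in every group, at 153 to 222 CPM per kb in B6 and 436 to 479 CPM per kb in the APOE3 groups. Pfkl stood lowest in all APOE3 groups, at 16.5 to 21.3 CPM per kb, and Hk1 ranked 8 or 9 of 10 there, at 24.8 to 42.5 CPM per kb. Hexokinase message was almost wholly Hk1. Counted per kilobase, Hk1 was at least 97.6% of the sum of Hk1 and Hk2 in every mouse. Among the phosphofructokinases, Pfkm held the largest share in APOE-TR groups, with group means of 53.7% to 56.7%. In B6 groups Pfkm held 33.8% to 40.4% and Pfkp 33.1% to 38.9%. The order of neighbours such as Pfkm and Gpi1 changed between APOE-TR groups, with 72.1 CPM per kb for Pfkm and 78.6 CPM per kb for Gpi1 in APOE4 males given nPM and the opposite order in APOE3 males.

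Hk1 had the largest difference between nPM and filtered air of the 10 genes over all mice. In B6 female controls Hk1 stood at 131, 128, 86.5 and 110 CPM and in B6 females given nPM at 168, 242, 194 and 185 CPM. Every exposed female stood above every control, a log2 difference of 0.79 ± 0.17 (SE, n = 4 against 4). In B6 male controls it stood at 107, 139, 146 and 232 CPM and with nPM at 242, 186, 208 and 257 CPM. One control male lay within the exposed range, and the log2 difference was 0.56 ± 0.23.
In APOE3 female controls Hk1 was 171 and 164 CPM in 52 and 63 but 56 and 90.9 CPM in 61 and F6. Given nPM, APOE3 females read 149, 219, 226 and 188 CPM. The log2 difference of 0.82 ± 0.35 became 0.21 without 61 and F6, 0.046 with the length slope as a covariate, and 0.50 to 1.03 with 1 mouse left out.
APOE3 males stood at 213, 211, 175 and 200 CPM in filtered air and 206, 208, 204 and 206 CPM with nPM. APOE4 females stood at 180, 202, 206 and 224 CPM in filtered air and 207, 210, 212 and 222 CPM with nPM. APOE4 males stood at 229, 182, 205 and 223 CPM in filtered air and 219, 244, 200 and 199 CPM with nPM. Groups overlapped in all 3 of these, with log2 differences of 0.05 ± 0.063, 0.07 ± 0.067 and 0.04 ± 0.084.

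**Figure D1:**
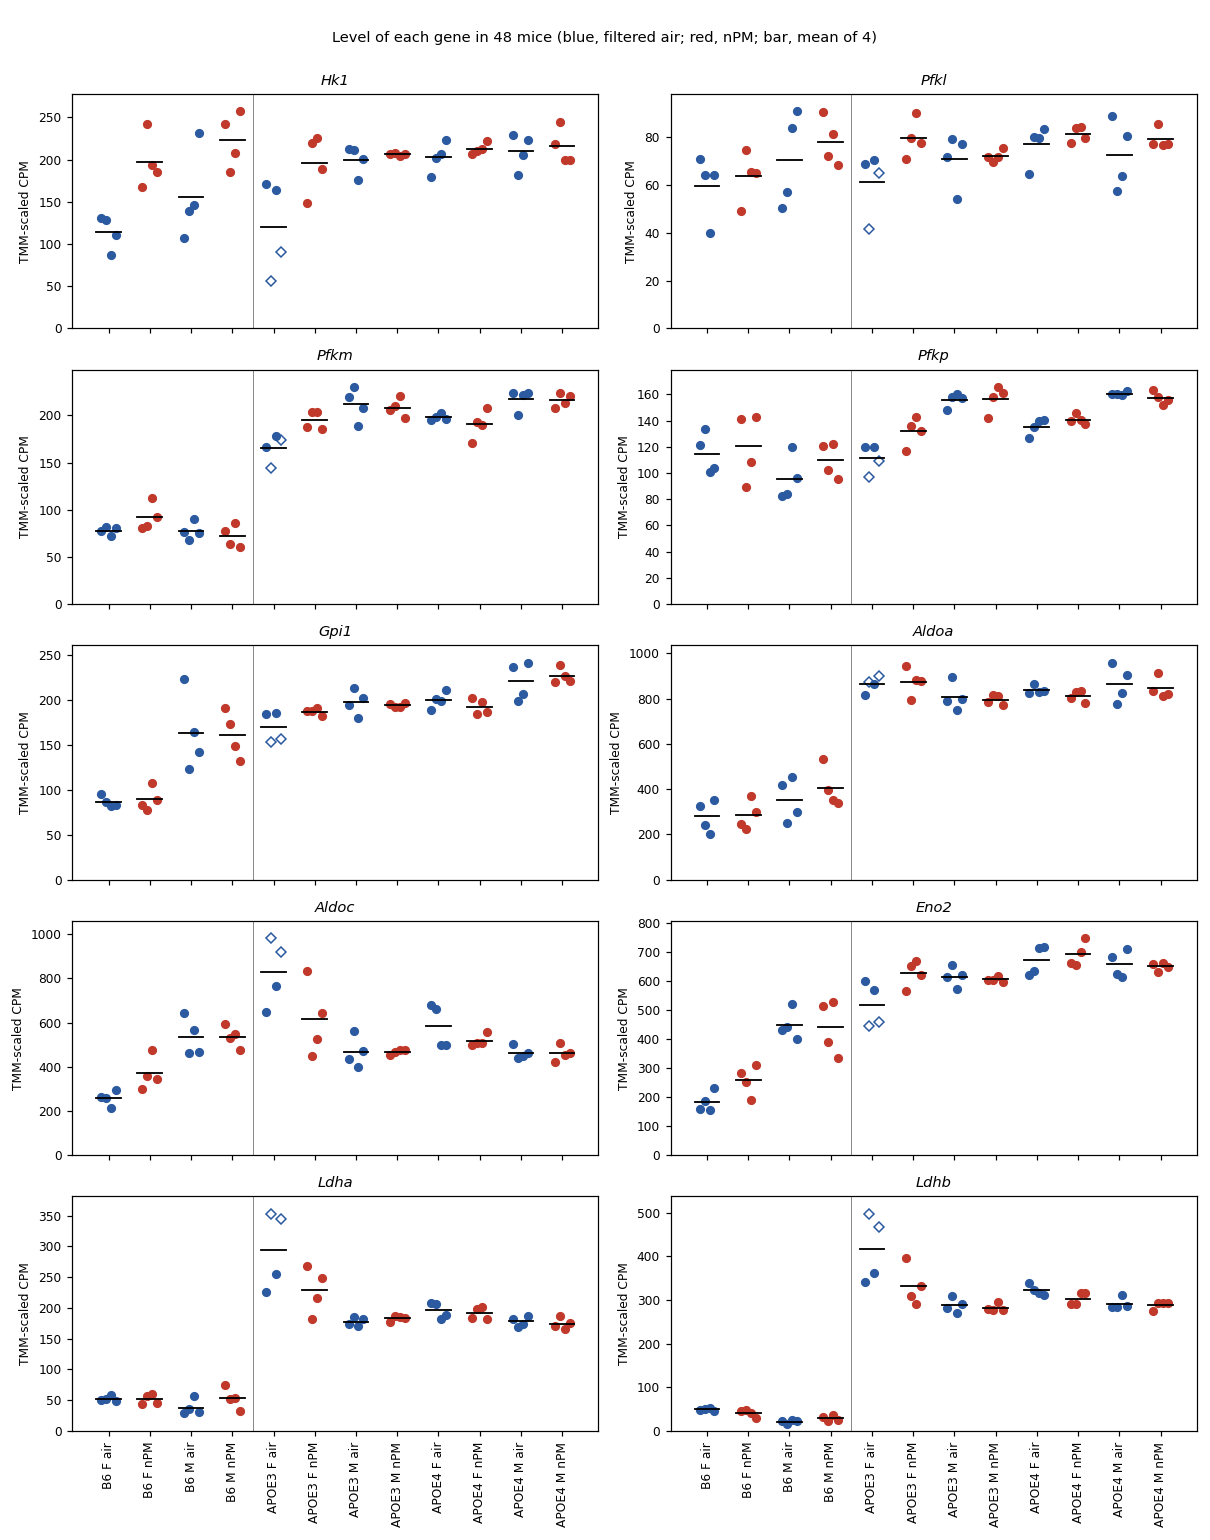
TMM-scaled CPM (y axis, from 0) of each of the 10 genes in the 12 groups (x axis), with 1 point per mouse and a bar at the group mean; open diamonds mark APOE3 female controls 61 and F6. Hk1 in these 2 mice is 56 and 90.9 CPM, below every other APOE-TR mouse, while their Ldha, at 353 and 344 CPM, is above every other.

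Over all 48 mice, with sex and genotype in the model, the log2 difference of Hk1 between nPM and filtered air was 0.39 ± 0.098, a 1.31-fold level. Its unadjusted p ranked 3 among 11080 genes, as a description, since this contrast was among those known when Hk1 was chosen. It was 0.29 without libraries 61 and F6, 0.32 with the length slope as a covariate, 0.56 in females only, 0.22 in males only, and 0.33 to 0.41 with 1 mouse left out. Hk1 was the 1 of the 10 genes under an unadjusted p of 0.005, the study's threshold, which 1.48% of all genes passed. Without 61 and F6 the number of genes past it went from 164 to 37. No gene passed a 5% false discovery rate (FDR) in this limma fit, and 1602 had an unadjusted p under 0.05.

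The steps next to hexokinase moved little over the 48 mice. Gpi1 differed by 0.03 ± 0.068 on the log2 scale. Pfkl, at 0.16 ± 0.072, was the highest of the phosphofructokinases, against 0.09 ± 0.059 for Pfkp and 0.04 ± 0.053 for Pfkm. Pfkp and the gene Pitrm1 share 748 bp of exon on opposite strands, and Gpi1 and the noncoding RNA gene Gm26762 share 356 bp likewise. Whether reads were counted by strand is not given in the sources used here. Below fructose bisphosphate, Aldoa differed by 0.03 ± 0.068, Aldoc by -0.01 ± 0.11 and Eno2 by 0.12 ± 0.090. Ldha differed by 0.01 ± 0.077 and Ldhb by -0.05 ± 0.078. In all, 8 of the 10 genes were higher and 2 lower, with a median log2 difference of 0.04 against 0.01 over all genes tested.

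**Figure D2:**
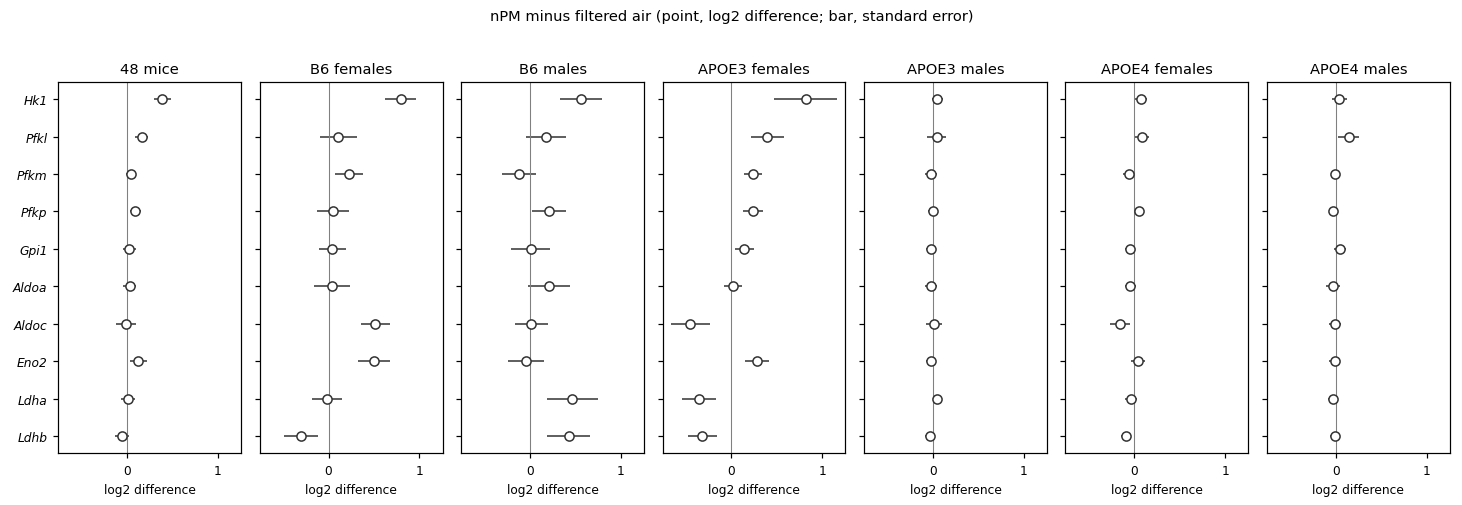
Log2 difference of nPM minus filtered air (x axis) for each of the 10 genes (y axis) over all 48 mice and in each of the 6 strata of 8 mice; points are the limma estimates and bars 1 standard error. Hk1 lies at 0.79 in B6 females, 0.56 in B6 males and 0.82 in APOE3 females, while in the other APOE-TR strata all 10 genes lie between -0.16 and 0.14.

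Within strata, the pattern around Hk1 was not shared. In B6 females, the groups of Aldoc also did not overlap, at 262, 261, 213 and 294 CPM in filtered air and 302, 359, 475 and 347 CPM with nPM, a log2 difference of 0.51 ± 0.16. Hk1 and Aldoc were the 2 of 10 genes without overlap, against 6.59% of all genes, and Hk1 was the 1 gene under p of 0.005, against 1.21%. Eno2 in B6 females stood at 159, 186, 157 and 232 CPM in filtered air and 284, 254, 191 and 312 CPM with nPM, and 1 exposed female fell within the control range (log2 difference 0.50 ± 0.18). In the same females the summed level of 7 astrocyte markers was lower with nPM, at 2312 to 2881 CPM, than in filtered air, at 3052 to 3525 CPM, and that of 7 neuron markers was 4082 to 6450 against 5826 to 6442 CPM. All 7 striatal neuron markers were higher by value with nPM (median log2 difference 1.10, none called), with summed levels of 346 to 1253 against 94.7 to 795 CPM, which overlapped. Their part in these values was not tested. In bulk tissue, fewer cells of a type and less RNA per cell cannot be told apart.

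In B6 males, Aldoc and Eno2 differed by 0.01 ± 0.18 and -0.04 ± 0.20, and the lactate dehydrogenase genes came next after Hk1. Ldha stood at 29.0, 35.4, 57.7 and 30.6 CPM in filtered air and 74.3, 52, 54.3 and 31.9 CPM with nPM (log2 difference 0.47 ± 0.28). Ldhb stood at 21.8, 16, 25.5 and 22.2 CPM and at 31.9, 23, 36.4 and 24.6 CPM (0.42 ± 0.24). Both sets of groups overlapped. In these males all 5 cortical excitatory neuron markers that could be tested were higher by value with nPM (median log2 difference 1.61, 1 called; sums 591 to 878 against 84.8 to 962 CPM), and all 7 striatal markers were lower by value (median -0.57, none called). Their part was not tested. None of the 10 genes was without overlap, against 2.22% of all genes, and none passed p of 0.005, against 0.234%.

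In APOE3 females, 7 of the 10 genes had a positive difference, and Aldoc, Ldha and Ldhb a negative one. Pfkl stood at 68.8, 41.4, 70.4 and 64.8 CPM in controls 52, 61, 63 and F6 and at 70.8, 79.7, 89.8 and 77.7 CPM with nPM. Pfkm stood at 167, 144, 178 and 174 CPM and at 188, 204, 204 and 186 CPM. These were the 2 of 10 genes without overlap (6.88% of all genes), by 0.40 ± 0.18 and 0.24 ± 0.10, and Pfkl missed overlap by less than 1 CPM. Ldha stood at 226, 353, 255 and 344 CPM in filtered air and 269, 181, 217 and 249 CPM with nPM (-0.35 ± 0.19). Ldhb differed by -0.32 ± 0.16 and Aldoc by -0.45 ± 0.21. None passed p of 0.005, against 0.665% of all genes. The sum of 7 microglia markers was 328 to 420 CPM in these controls and 238 to 322 CPM with nPM, and that of 7 oligodendrocyte markers 4727 to 6407 and 3709 to 4950 CPM, whose part was not tested. Without 61 and F6 the differences were 0.19 for Pfkl, 0.18 for Pfkm, -0.08 for Ldha, -0.09 for Ldhb and -0.24 for Aldoc, and with the length slope as a covariate they were 0.08, 0.13, -0.00012, -0.01 and -0.08. Between the pair 61 and F6 and the pair 52 and 63, both in filtered air, Hk1 was different by -1.19 on the log2 scale, and Ldha was different by 0.54. Across the 10 genes, exon length and log2 difference gave a Spearman correlation of 0.66 in APOE3 females and 0.71 in B6 females. It was 0.52 in APOE3 males, 0.54 in APOE4 females, 0.53 in APOE4 males, 0.018 in B6 males and 0.71 over 48 mice. These are descriptions over genes of the same libraries.

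**Figure D3:**
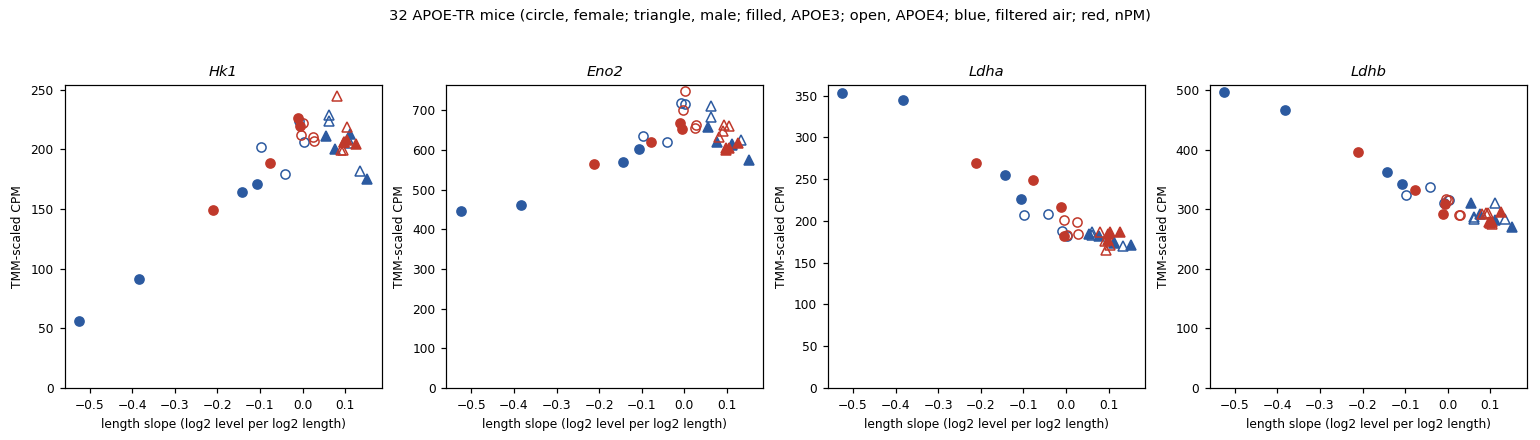
TMM-scaled CPM (y axis, from 0) of Hk1, Eno2, Ldha and Ldhb against the length slope of the library (x axis) in the 32 APOE-TR mice; circles are females, triangles males, filled symbols APOE3, open symbols APOE4, blue filtered air and red nPM. The 2 leftmost blue circles are APOE3 female controls 61 and F6 with slopes of -0.53 and -0.38, low in Hk1 and Eno2 and high in Ldha and Ldhb.

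In APOE3 males, APOE4 females and APOE4 males, none of the 10 genes was without overlap, against 1.42%, 3.49% and 2.42% of all genes. None passed p of 0.005 there, against 0.154%, 0.272% and 0.178%. The values farthest from 0 in these strata were Aldoc in APOE4 females, at -0.16 ± 0.11, and Pfkl in APOE4 males, at 0.14 ± 0.12.

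Taking the male from the female response, averaged over the 3 genotypes, left a log2 difference of 0.34 ± 0.17 for Hk1, and 0.14 without 61 and F6. It was 0.30 ± 0.11 for Eno2 and 0.19 ± 0.085 for Pfkm, and of the opposite sign for both lactate dehydrogenase genes, at -0.30 ± 0.14 for Ldha and -0.36 ± 0.11 for Ldhb. Ldhb was the 1 of 10 genes under p of 0.005, as a description, and 1.98% of all genes passed it. Without 61 and F6 the number of genes past it went from 219 to 56. For Eno2, Pfkm, Ldha and Ldhb this difference between sexes is given only with that pair. The difference of the response between alleles in females, APOE4 minus APOE3, was -0.75 ± 0.29 for Hk1 and -0.13 without 61 and F6. For Pfkm it was -0.30 ± 0.098, and -0.24 without that pair. None of the 10 passed p of 0.005 for it, against 3.76% of all genes.

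APOE4 and APOE3 females in filtered air were set side by side in a comparison that shares its APOE3 controls, libraries 61 and F6 included, with the nPM comparison. Hk1 was 180, 202, 206 and 224 CPM with APOE4, above all 4 APOE3 controls given earlier, a log2 difference of 0.88 ± 0.33. Eno2 was 621, 634, 715 and 719 CPM with APOE4 and 602, 447, 568 and 461 CPM with APOE3 (0.38 ± 0.13). Pfkm, Pfkp and Gpi1 differed by 0.26 ± 0.094, 0.28 ± 0.098 and 0.24 ± 0.10. Ldha was 209, 207, 182 and 188 CPM with APOE4, below all 4 APOE3 controls (-0.56 ± 0.16), and Ldhb differed by -0.36 ± 0.14. Groups of these 7 genes did not overlap, which also held for 29.1% of all genes. None of the 10 passed 5% FDR, against 0.231% of all genes. Without 61 and F6, Hk1 differed by 0.27, Eno2 by 0.20, Ldha by -0.29 and Ldhb by -0.13. With the length slope as a covariate, Hk1 turned to -0.045.

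Among males in filtered air the alleles overlapped in all 10 genes, against 3.76% of all genes without overlap, and Hk1 differed by 0.07 ± 0.084. None passed 5% FDR there, against 0.433%. Among females given nPM they also overlapped in all 10, against 5.84%, with Hk1 at 0.14 ± 0.12 and Ldha at -0.24 ± 0.12. None passed 5% FDR there, against 0.145%. Among males given nPM, 3 genes were without overlap, against 5.72%. Gpi1, the isomerase after hexokinase, was 220, 239, 227 and 221 CPM with APOE4 and 195, 192, 192 and 197 CPM with APOE3, a log2 difference of 0.22 ± 0.041. As a description, Gpi1 was the 1 of the 10 genes past 5% FDR there, which 0.475% of all genes passed. In filtered air its log2 difference between the males was 0.16 ± 0.076. Pfkl and Eno2 differed by 0.13 ± 0.047 and 0.10 ± 0.044. Gpi1 lies 14.5 Mb from the Apoe gene on chromosome 7, where Ldha lies 27.1 Mb and Aldoa 107.1 Mb away.

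Females and males were then compared within genotype and exposure, by limma with Benjamini-Hochberg adjustment over all genes tested. The contrast of sexes was not used to choose the 10 genes, but its groups are the same mice whose responses and allele differences were known, so these p-values are not independent of the choice. In B6 mice in filtered air, 4 genes passed 5% FDR, against 17.3% of all genes. Eno2 was lower in females, at 159, 186, 157 and 232 CPM, than in males, at 431, 443, 520 and 401 CPM (log2 difference -1.30 ± 0.18, adjusted p = 0.00114). Aldoc was lower, at 213 to 294 against 464 to 642 CPM (-1.05 ± 0.18, adjusted p = 0.00293). Gpi1 was lower, at 81.8 to 95 against 123 to 224 CPM (-0.88 ± 0.19, adjusted p = 0.00987), a call lost with voom weights (adjusted p = 0.0864). Ldhb was higher in females, at 49.0, 50.5, 53.2 and 45.3 CPM, than in males, at 21.8, 16, 25.5 and 22.2 CPM (1.21 ± 0.20, adjusted p = 0.00260). Each of the 4 was without overlap, as were 23.8% of all genes. Ldha, at 0.50 ± 0.22 (adjusted p = 0.138), passed only without male 3 (adjusted p = 0.0227). Summed markers of several cell types also moved between these groups. Neuron markers summed to 5826 to 6442 CPM in females and 2111 to 4498 CPM in males, astrocyte markers to 3052 to 3525 and 1037 to 2363 CPM, and cortical excitatory neuron markers to 670 to 955 and 84.8 to 962 CPM. Of the 7 neuron markers, 3 were called higher and 2 lower in females. All 7 striatal neuron markers were lower by value in females (median log2 difference -1.74, 1 called), with sums of 94.7 to 795 against 694 to 1948 CPM. The part of these cell types in the sex differences was not tested.

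With nPM, none of the 10 genes passed 5% FDR between B6 females and males, as 0.0958% of all genes did, and 4 had an unadjusted p under 0.05, against 16.5%. Gpi1 was 83.3, 77.4, 108 and 88.8 CPM in females and 191, 174, 149 and 133 CPM in males, without overlap (-0.85 ± 0.18, adjusted p = 0.0676), and passed when female 52 was left out (adjusted p = 0.0367). Eno2 was also without overlap, at -0.76 ± 0.20 (adjusted p = 0.106), as was Aldoc, at -0.55 ± 0.17 (adjusted p = 0.156), against 10.2% of all genes.

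In APOE3 mice in filtered air, 5 genes passed, against 44% of all genes. Aldoc was higher in females, at 650, 982, 764 and 920 CPM, than in males, at 438, 561, 398 and 472 CPM (0.82 ± 0.16, adjusted p = 0.00963). Ldha was higher, at 226 to 353 against 171 to 185 CPM (0.70 ± 0.15, adjusted p = 0.0114), and Ldhb was higher, at 342 to 497 against 271 to 310 CPM (0.52 ± 0.14, adjusted p = 0.0193). Pfkp was lower in females, at 97.4 to 120 against 148 to 161 CPM (-0.49 ± 0.098, adjusted p = 0.00985). Pfkm was lower, at 144 to 178 against 189 to 230 CPM (-0.35 ± 0.11, adjusted p = 0.0283). Without 61 and F6 these 5 remained past the threshold, with log2 differences of 0.60 for Aldoc, 0.43 for Ldha, 0.29 for Ldhb, -0.38 for Pfkp and -0.29 for Pfkm. Of 7 markers each, 5 of oligodendrocytes, 5 of microglia and 4 of astrocytes were called higher in these females and 6 of endothelial cells lower. Oligodendrocyte sums were 4727 to 6407 CPM in females and 2925 to 3758 CPM in males, microglia sums 328 to 420 and 240 to 257 CPM, and their part was not tested. Hk1, at -0.86 ± 0.33, missed the threshold (adjusted p = 0.0579), and passed without 61 and F6 at the smaller difference of -0.25 (adjusted p = 0.0491). It also passed without control 52 (-1.08, adjusted p = 0.0191) or 63 (-1.06, adjusted p = 0.0295), and Eno2 passed without control 52 (-0.33, adjusted p = 0.0450). The call of Pfkm was lost without male 51, 55 or 73 or female F6, and that of Ldhb without male 51 or 63 or female F6, with adjusted p from 0.0550 to 0.0807. Aldoc thus had opposite signs in B6 and APOE3 mice and Ldhb the same sign. The difference between the lines was not tested.

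With nPM, none of the 10 genes passed between APOE3 females and males, against 18.6% of all genes, and 3 had an unadjusted p under 0.05, against 35.4%. Pfkp differed by -0.25 ± 0.084 (adjusted p = 0.0642), and passed without female 67 (adjusted p = 0.0484). Ldha differed by 0.30 ± 0.11 (adjusted p = 0.0887) and Aldoc by 0.35 ± 0.16 (adjusted p = 0.152), and both passed without female 59 (adjusted p = 0.0163 and 0.0419). In APOE4 mice in filtered air only Pfkp passed, against 20% of all genes, at 127, 135, 140 and 141 CPM in females and 160, 160, 159 and 163 CPM in males (-0.25 ± 0.053, adjusted p = 0.0100). Aldoc, at 0.32 ± 0.11 (adjusted p = 0.0677), passed without female 26 or 38 (adjusted p = 0.0375 and 0.0374). In APOE4 mice given nPM, 3 genes passed, against 20.7% of all genes. Gpi1 was 202, 185, 197 and 187 CPM in females and 220, 239, 227 and 221 CPM in males (-0.23 ± 0.045, adjusted p = 0.00404). Pfkp differed by -0.16 ± 0.038 (adjusted p = 0.0133), and Pfkm by -0.18 ± 0.057 (adjusted p = 0.0423), a call lost when any of 7 single mice was left out. Aldoc and Ldha passed without nPM male 33 (adjusted p = 0.0239 and 0.0415). Sign and size of Pfkp are given side by side here, since the 4 APOE-TR comparisons use separate mice: its log2 difference was -0.49 and -0.25 in filtered air and -0.25 and -0.16 with nPM, for APOE3 and APOE4. In all 4, females also had the shallower libraries and the lower length slopes, with no overlap between the sexes, and these cannot be told apart from sex.

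**Figure D4:**
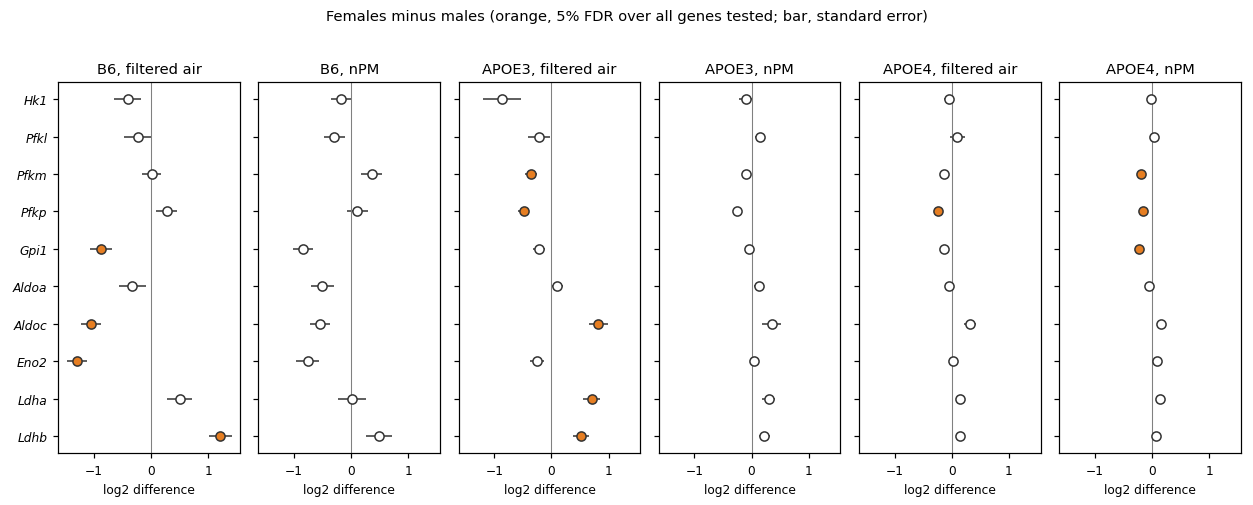
Log2 difference of females minus males (x axis) for each of the 10 genes (y axis) in the 6 pairs of groups of 4 mice; points are the limma estimates and bars 1 standard error, with filled points past 5% FDR. Filled points number 4 in B6 mice in filtered air and 5 in APOE3 mice in filtered air, against 1 and 3 in APOE4 mice.

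The other enzymes and transporters of glucose metabolism were read from 7 lists that together hold 70 genes. For nPM over 48 mice, 0 of the 56 tested passed p of 0.005 by limma, against 1.48% of all genes. An unadjusted p under 0.05 was found for 8, 3 higher and 5 lower, against 14.5% of all genes. Glucose transporters Slc2a1 and Slc2a3, which carry glucose across the blood-brain barrier and into neurons, differed by 0.11 ± 0.074 and 0.12 ± 0.077. Of the glycolytic enzymes outside the 10, Tpi1 differed by 0.02, Gapdh by 0.03, Pgk1 by -0.08, Pgam1 by -0.08, Eno1 by -0.02 and Pkm by 0.09 ± 0.051. Hk2 was at the lowest value of the library in some B6 mice and was not tested. Of the 12 genes for entry of pyruvate into mitochondria, 1 was higher and 11 lower, none past the threshold, with a median of -0.08 against 0.01 over all genes.

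Within strata, 4 calls at p of 0.005 were made in the lists, named here after their values were seen. They fell in APOE3 males and APOE4 females, where 0.154% and 0.272% of all genes passed. Slc2a1 was higher with nPM in APOE3 males, by 0.32 ± 0.084, with overlap. In APOE4 females Slc2a1 was lower with nPM, at 30.8 to 34.0 against 36.9 to 41.3 CPM (-0.25 ± 0.059). Bsg, the partner protein of lactate transporters, and Egln1, an oxygen sensor that marks HIF1A for breakdown, were lower there too, with differences of -0.21 and -0.17. All 7 endothelial markers were lower by value with nPM in APOE4 females (median log2 difference -0.39, with sums of 38.1 to 63.7 against 54.6 to 76.3 CPM), and 6 of 7 were higher by value in APOE3 males (median 0.10), none of them called in either, and their part was not tested. Between alleles, none of the 69 listed genes tested passed 5% FDR by limma in females in filtered air, where 9 were higher and 19 lower with APOE4 at an unadjusted p under 0.05, against 41.1% of all genes.

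Between sexes, Slc2a1 was lower in females in all 4 APOE-TR comparisons, by limma with adjusted p from 9.79e-05 to 0.0126. Its log2 differences were -0.52 and -0.36 in filtered air and -0.68 and -0.80 with nPM, for APOE3 and APOE4. Slc2a1 is abundant in brain endothelium, and 7 endothelial markers summed to 38.1 to 76.3 CPM in APOE-TR females and 90.2 to 148 CPM in males, without overlap. The part of endothelial RNA in the Slc2a1 difference was not tested. Pgam1, the mutase after phosphoglycerate kinase, was higher in females in all 4, by 0.48 and 0.17 in filtered air and 0.31 and 0.17 with nPM. Mpc1, a subunit of the mitochondrial pyruvate carrier, was higher in all 4 as well, by 1.38, 0.46, 0.68 and 0.31 in the same order, and was named after its values were seen. Pgam1 and Mpc1 are given by sign and size only. In all 4 comparisons females also had shallower libraries and lower length slopes, without overlap, and these cannot be told apart from sex. That limit holds for Slc2a1 too. The APOE3 values in filtered air are given only with the pair of female control libraries that stood apart. Of 69 listed genes tested in APOE-TR mice, 21 were higher and 10 lower in females at 5% FDR in APOE3 mice in filtered air, against 44% of all genes. The count was 11 in APOE3 mice given nPM (18.6% of all genes), 12 in APOE4 mice in filtered air (20%) and 11 in APOE4 mice given nPM (20.7%). In B6 mice 13 of 60 passed in filtered air, 7 higher and 6 lower in females, against 17.3% of all genes. With nPM, 0 of 57 passed by limma, and 7 were higher and 8 lower at an unadjusted p under 0.05, against 16.5% of all genes.

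The shares of isozymes were as follows, as a description. Ldha made up 29.4% to 32.6% of lactate dehydrogenase message per kilobase in the APOE-TR group means. It was 42% ± 1.0 in B6 female controls and 54.4% ± 7.2 in B6 male controls (SD, n = 4). The Aldoc share of aldolase was 36.5% ± 3.4 in B6 female controls and 44.5% ± 3.4 in B6 females given nPM, without overlap. It was 36.9% ± 3.6 in APOE3 female controls, 29.7% ± 4.3 in APOE3 females given nPM, and 24.8% to 26.5% in the 4 groups of APOE-TR males.

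The genes whose levels ran most like Hk1 over the 32 APOE-TR mice were Tecpr1, Rapgefl1, Trappc9, Npcd and Strn4, with Pearson r of log2 levels from 0.983 to 0.990. Without 61 and F6 their r ranged from 0.878 to 0.937 over 30 mice, and over the 16 B6 mice it was 0.66, 0.69, 0.56, 0.00056 and 0.71, in that order. Among the other 9 glycolytic genes, Eno2 was nearest in APOE-TR mice, with r of 0.868, and 0.682 without 61 and F6. In B6 mice Pfkl (0.700) and Aldoc (0.482) stood above Eno2 (0.420). Ldhb and Ldha ran opposite, with r of -0.871 and -0.836, and -0.614 and -0.564 without that pair. In B6 mice Ldhb and Ldha had r of -0.228 and 0.044. These mice share groups and libraries, so r is a description of these samples.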

How the data were processed

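Cerebral cortex RNA-seq was read from the CPM tables that the authors deposited, 1 for 16 B6 mice and 1 for 32 APOE-TR mice. The submitters' processing notes name TopHat2 2.0.8b and Partek, and the labels name the mm10 genome. Values under 50 reads came out as whole multiples of 1 read, within 0.02 reads, for 94.2% to 95.1% of values per APOE-TR library and 77.5% to 95.7% per B6 library, so B6 depths are estimates. Each table lost 4 duplicated listings. No 2 libraries were identical.

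Levels were TMM-scaled with edgeR 4.0.16 in R 4.3.3, and log2(CPM + 0.5) was fitted with limma 3.58.1 (lmFit, eBayes with trend), so fold changes of low genes are understated. Only genes whose value exceeded the library's lowest in all mice of a fit were tested. Responses to nPM were called at an unadjusted p of 0.005, as in the study, and alleles and sexes at 5% FDR. Voom, ComBat (sva 3.50.0), DESeq2 1.42.0 and edgeR on recovered reads (APOE-TR only) were alternatives. In APOE3 females given nPM, edgeR called 121 genes and DESeq2 467, against 109 by limma. Exon lengths came from GENCODE M21 on GRCm38. Counting error alone is small at these depths and spread among mice sets the precision.

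On simulated data with 200 changed genes, 200 were recovered at 5% FDR in the design over 48 mice, at a log2 change of 1.5.

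The 10 genes and all lists were chosen with earlier results of these data known. Named genes were the 10, the main remaining enzymes and transporters, list genes called over 48 mice, and the 5 genes most like Hk1, with others named where few were called. A further gene of the lists is not reported here. Alternatives were planned except that without libraries 61 and F6, added after seeing the data.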

Additional observations from a re-analysis of the deposited data

Results flagged for a closer look

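In 120 groups of 4 mice (10 genes in 12 groups), 6 held a mouse whose gap to the next exceeded Dixon's 95% critical value, and 6 were expected by chance, about 1 in 20. These were Aldoa at 862 CPM in APOE4 female control 21, Ldhb at 296 CPM in APOE3 nPM male 58, Ldhb at 311 CPM in APOE4 male control 32, Ldhb at 275 CPM in APOE4 nPM male 23, Pfkl at 85.5 CPM in APOE4 nPM male 33, and Pfkm at 201 CPM in APOE4 male control 21.

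The response to nPM differed between sexes at an unadjusted p of 0.005 in 2 listed genes, a threshold that 1.98% of all genes passed. Ugp2, which makes UDP-glucose for glycogen, differed by -0.46 (log2, female minus male response), and Pfkfb4, which sets the activator of phosphofructokinase, by 0.43. Between alleles in females (APOE4 minus APOE3 response), 5 listed genes differed, and 3.76% of all genes passed. Slc2a1 differed by -0.41, the glycogen phosphorylase Pygm by -0.61 and the pyruvate dehydrogenase kinase Pdk2 by -0.89. Ugp2 differed by 0.66 and the pentose phosphate enzyme Rpe by 0.71. None of these 7 differences passed 5% FDR by limma, with adjusted p from 0.126 to 0.228, and without APOE3 female controls 61 and F6 0 listed genes were called between alleles.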

How the results depend on the processing

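Of 4370 alternative values for the 10 genes, 4277 kept direction and side of the threshold or moved within the spread. Of the rest, 18 were labelled weaker, 26 stronger, 48 moved and 1 reversed. The reversed value was Hk1 between alleles in females in filtered air, which became -0.045 with the length slope as a covariate. A change of sign within the spread is counted among the 4277, so 1 is not the number of all sign changes.

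Counts of listed genes called changed by over 1.5 times as follows. For nPM over 48 mice, 0 became 3 in females only, and 0 to 1 with 1 mouse left out. In B6 females 0 became 1 with at least 10 reads in every mouse or with the spread shared over the table, and 0 to 2 with 1 mouse left out. In APOE3 females 0 became 20 with shared spread, 2 with DESeq2, and 0 to 1 with 1 left out, with 1 without control 52 or 63. In APOE3 males 1 became 0 to 1 with 1 left out, and 0 without control 63 or 73 or exposed male 58 or 76. In APOE4 females 3 became 0 with shared spread, 1 with the length slope, and 0 to 2 with 1 left out. For the alleles in females in filtered air, 0 became 34 with shared spread, 18 with DESeq2, and 1 without 61 and F6. Leaving out 1 mouse gave 0 to 22, the highest without APOE3 control 52. In males given nPM it was 0 to 1. The difference of response between sexes went from 2 to 1 with the length slope and 1 to 5 with 1 left out. That between alleles went from 5 to 3 without TMM or with edgeR, 1 with the length slope, 0 without 61 and F6, and 0 to 13 with 1 left out. Over all genes, 38 calls between alleles in females in filtered air became 8867 with shared spread, 4155 with DESeq2 and 341 without 61 and F6. Without that pair, calls over all genes also went from 219 to 56 for the difference of response between sexes and from 601 to 167 for that between alleles. Shared spread gives more residual degrees of freedom by construction and uses the same spread for every group. It raised calls over all genes in some comparisons and lowered them in others, from 30 to 5 for nPM in APOE4 males. The cause of these changes was not tested.

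Counts of the 10 genes called between sexes changed too. B6 mice in filtered air gave 4 to 5 with 1 left out. B6 mice given nPM went from 0 to 1 with shared spread, and 0 to 1 with 1 left out. APOE3 mice in filtered air went from 5 to 8 with shared spread, and 3 to 7 with 1 left out. APOE3 mice given nPM went from 0 to 2 with shared spread or DESeq2, and 0 to 2 with 1 left out. APOE4 mice in filtered air went from 1 to 2 with edgeR, 3 with DESeq2, and 1 to 2 with 1 left out. APOE4 mice given nPM went from 3 to 1 with shared spread, 5 with DESeq2, and 2 to 4 with 1 left out.

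No paired analysis was possible because the groups compared share fewer than 2 animal numbers. Count models were not run for B6, the 48-mouse model or the difference between sexes, where whole reads were not recovered.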
